A study of Sus scrofa with 32 samples.

Results

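The diet response of the coronary artery was set against that of the aorta within the same juvenile Ossabaw miniature pigs. For each pig the log2 expression in the thoracic aorta (TA) was subtracted from that in the main anterior coronary branch, the left anterior descending artery (LAD), and the within-pig differences were compared between obese and lean pigs. A positive result therefore means that the obese minus lean difference was larger in the LAD than in the TA, a negative result that it was larger in the TA, and a result near 0 that it was close in both arteries. The comparison used 18 of the 32 arrays of the series, 9 per artery, from 5 lean pigs (48, 56, 73, 80 and 86) and 4 obese pigs (51, 55, 81 and 85).

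Ossabaw swine are a feral island breed that gains fat readily and is used as a model of diet-induced obesity. The pigs, which entered the study at 5 to 6 weeks of age, were assigned at random to their diets, kept on them for 16 weeks and studied at 22 weeks. Lean pigs ate a commercial low fat feed, and obese pigs a feed rich in fat, high fructose corn syrup and cholesterol. Both arteries were whole vessel segments freed of surrounding fat and of excess adventitia, and RNA of both was isolated with the same kit. Each array is 1 artery of 1 animal, no samples were pooled, and diet is the only treatment the labels give. Of the 11 pigs of the series, lean pig 63 had no TA array and obese pig 57 was left out. All 12 measured epithelial genes were higher in the TA array of pig 57 than in any of the other 9 TA arrays. E-cadherin (CDH1), for example, was at 12.57 against 5.70 to 7.54.

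The artery wall holds smooth muscle, an endothelial lining, fibroblasts and resident macrophages. Macrophages in the wall take up modified lipoproteins and dying cells, and they carry the phagocyte NADPH oxidase, Fc receptors and the complement component C1q. Cells loaded with sterol switch on liver X receptor (LXR) targets such as APOE and ABCA1 and shut down cholesterol synthesis, while type I interferon switches on a separate set of antiviral genes. Coronary and thoracic aortic muscle come from different embryonic sources, and the adult vessels keep different sets of positional transcription factors.

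Some marker levels separated the arteries and others did not. Smooth muscle myosin (MYH11) overlapped, at a log2 level of 14.27 to 14.43 in LAD and 14.17 to 14.42 in TA. HOXA10 overlapped too, at 7.40 to 8.03 in LAD and 7.57 to 8.20 in TA. TCF21, a transcription factor of the epicardial lineage, was at 9.17 to 10.54 in LAD and 4.10 to 6.15 in TA. GATA4, a cardiac transcription factor, was at 9.22 to 10.03 in LAD and 4.89 to 5.58 in TA, and HOXA7 was lower in LAD in all 9 pigs. Cardiac troponin T (TNNT2) ran from 5.66 to 11.60 in LAD and from 3.16 to 3.94 in TA, so LAD segments carried heart muscle RNA in very unequal amounts. The 28S/18S ratio of the RNA lay between 1.17 and 1.54 in 15 of the 18 arrays, and was 0.69 in the LAD of obese pig 55, 0.61 in the TA of obese pig 81 and 0.57 in the TA of obese pig 85.

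The within-pig comparison asks which genes respond to the obesogenic diet differently in the 2 arteries. Of 10029 tested probe sets, 7 passed a Benjamini-Hochberg adjusted p threshold of 0.05 (0.0698%), 6 of them with a higher LAD minus TA difference in obese pigs (0.0598%) and 1 with a lower difference (0.00997%). Without adjustment 915 probe sets (9.12%) had a p under 0.05, 490 of them higher and 425 lower, where 501.45 would be expected with no difference anywhere. Those with an adjusted p under 0.1 were 66 higher and 5 lower. In the same 9 pigs, obese against lean gave 0 passing probe sets in the LAD alone (0%, with 1965 at an unadjusted p under 0.05) and 29 in the TA alone (0.289%). The count of 7 is not firm. It became 0 without any one of pigs 48, 51, 55, 85 and 86, 4 without pig 73, 61 without pig 81, and 0 when pig 57 was added. With each of 6694 genes tested once, by its highest probe set, 36 passed.

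NPL, the lyase that breaks down free sialic acid, had the largest difference among the passing genes. Its LAD minus TA difference was -0.65, -0.93, -0.24, -0.04 and -0.63 in lean pigs 48, 56, 73, 80 and 86, and 1.41, 1.23, 1.21 and 1.99 in obese pigs 51, 55, 81 and 85. Every lean pig had less NPL signal in its coronary artery than in its aorta and every obese pig had more, so the groups did not overlap. The diet response differed between the arteries by 1.96 (SE 0.21, limma adjusted p = 0.0178), made of an obese minus lean difference of 2.34 (SE 0.45) in LAD and 0.38 (SE 0.48) in TA. It was 2.16, 2.07 and 1.90 within the 3 sacrifice dates, each of which held lean and obese pigs. The 2.16 sets obese pig 55 against lean pig 56 alone, and the 2.07 obese pig 51 against lean pig 48 alone. Only the 1.90 rests on more pigs (81 and 85 against 73, 80 and 86). All values by date below are in this order and have the same limit.

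CYBB, which encodes the membrane subunit of the phagocyte NADPH oxidase and is listed as GP91-PHOX on the platform, behaved alike. The lean pigs' differences were -0.45, -0.45, 0.04, 0.10 and -0.64, in the order used for NPL, and the obese pigs' 1.10, 1.09, 1.24 and 2.00. Lean pigs lay around equality of both arteries and obese pigs at least 1 log2 unit above it, with pig 85 the highest. The response differed by 1.64 (SE 0.22, limma adjusted p = 0.049), with 2.26 (SE 0.42) in LAD and 0.62 (SE 0.48) in TA.

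The levels behind these differences show that obese pigs were not alike. In the LAD, CYBB was at 8.05, 7.78, 8.59, 8.62 and 8.14 in the lean pigs and at 11.27, 11.38, 9.15 and 10.19 in the obese pigs. In the TA it was at 8.50, 8.22, 8.54, 8.52 and 8.78 in the lean pigs and at 10.17, 10.28, 7.91 and 8.19 in the obese pigs. Aortas of obese pigs 51 and 55 thus stood well above every lean aorta, and those of obese pigs 81 and 85 stood below all lean aortas, while all 4 obese coronary arteries stood above every lean one. NPL had the same arrangement, with 8.97, 8.77, 6.76 and 6.59 in obese TA against 7.03 to 7.64 in lean TA. Pigs 81 and 85 are the obese pigs of 1 sacrifice date and have the lowest TA 28S/18S ratios. The part of either in the aortic levels was not tested. Without these pigs the differences of the macrophage genes had a median of 0.99, against 1.17 with them.

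**Figure D1:**
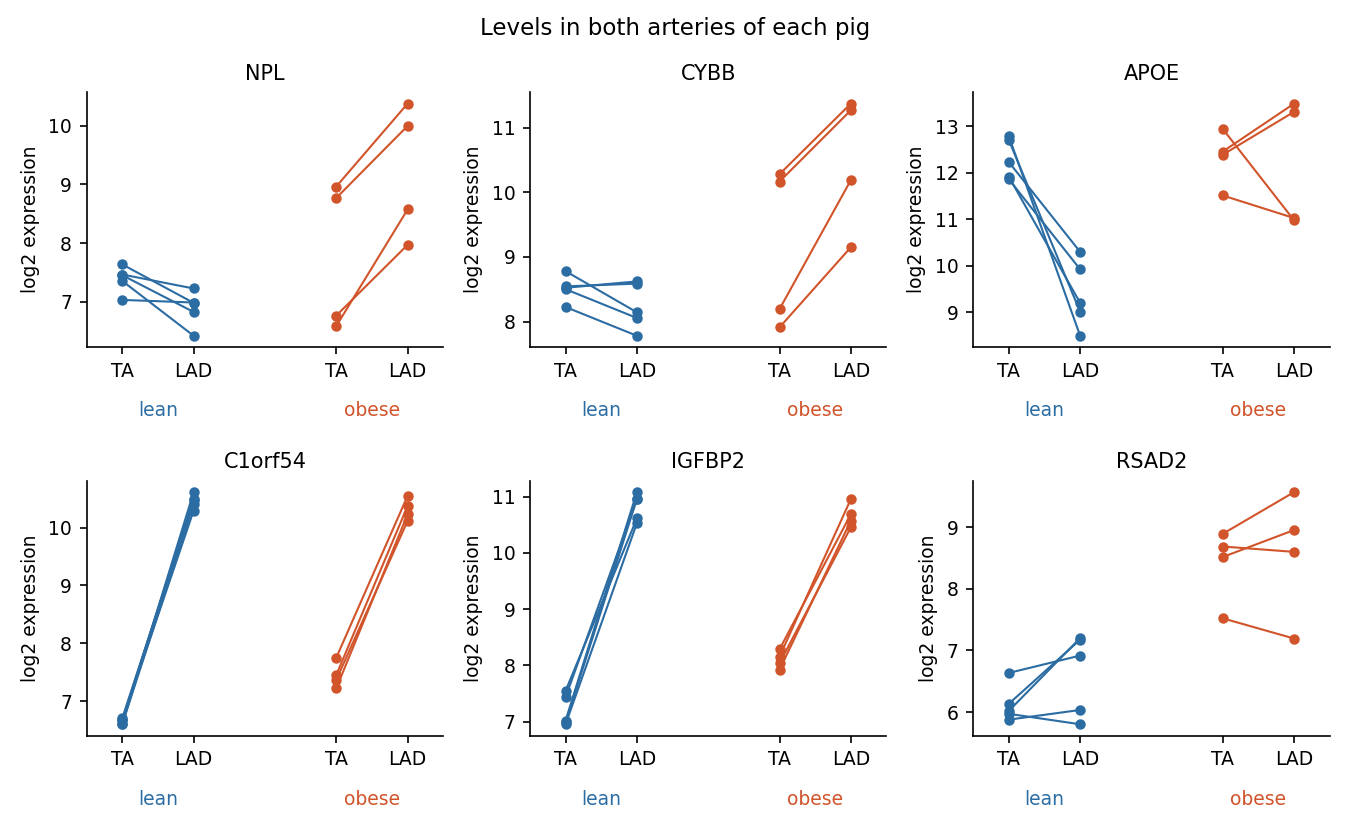
Log2 expression of 6 genes in the TA and the LAD of each pig, with a line joining the 2 arteries of 1 animal, lean pigs in blue and obese pigs in orange. NPL and CYBB are flat or falling from TA to LAD in lean pigs and climb in all 4 obese pigs, APOE differs mainly in LAD, C1orf54 and IGFBP2 differ mainly in TA, and RSAD2 is higher in obese pigs in both arteries.

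SDC2 and FAM49B completed the named genes whose difference was higher in obese pigs. SDC2, the cell surface heparan sulfate proteoglycan syndecan-2, had differences of -0.27, -0.64, -0.26, -0.49 and -0.35 in lean pigs and 0.61, 0.84, 0.25 and 0.94 in obese pigs. All lean pigs were below 0 and all obese pigs above it. Its response differed by 1.06 (SE 0.15, limma adjusted p = 0.049), but 2 further SDC2 probe sets gave 0.44 and 0.32 and did not pass. FAM49B (also CYRIB), which binds the small GTPase RAC1, had differences of -0.18, -0.49, -0.23, -0.14 and -0.43 in lean pigs and 0.62, 0.36, 0.34 and 0.47 in obese pigs. Here too the sign separated the groups, at a smaller size of 0.75 (SE 0.11, limma adjusted p = 0.049), with 0.76 in LAD and 0.02 in TA. The 0.02 joins opposite values, as obese TA levels were 9.92 and 9.82 in pigs 51 and 55 and 9.14 and 9.15 in pigs 81 and 85. Lean TA levels were 9.40 to 9.56. SDC2 was split alike, at 11.10, 11.11, 10.68 and 10.01 in obese TA against 10.73 to 10.97 in lean TA. The other 2 passing probe sets carry no gene symbol and differed by 1.13 (SE 0.13) and 1.35 (SE 0.16), each with an adjusted p of 0.0207. Their TA levels too were above all lean pigs in pigs 51 and 55 and below all of them in pigs 81 and 85.

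C1orf54, a small open reading frame listed as C4H1orf54 on the platform, was the single passing gene in the other direction. Its LAD minus TA difference was 4.01, 3.77, 3.62, 3.79 and 3.81 in lean pigs and 2.92, 2.80, 3.01 and 2.75 in obese pigs. The coronary artery held far more signal than the aorta in every pig, and the gap was narrower in all obese pigs, with no overlap. The response differed by -0.94 (SE 0.10, limma adjusted p = 0.0178). The LAD level was much the same, 10.45 ± 0.12 (SD, n = 5) in the lean group and 10.32 ± 0.19 (SD, n = 4) in the obese group. The TA level was 6.65 ± 0.05 in lean and 7.45 ± 0.22 in obese pigs, a difference of 0.80 (SE 0.10) that also passed in the TA alone (adjusted p = 0.0245). The difference was -0.98, -1.09 and -0.87 within the sacrifice dates.

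**Figure D2:**
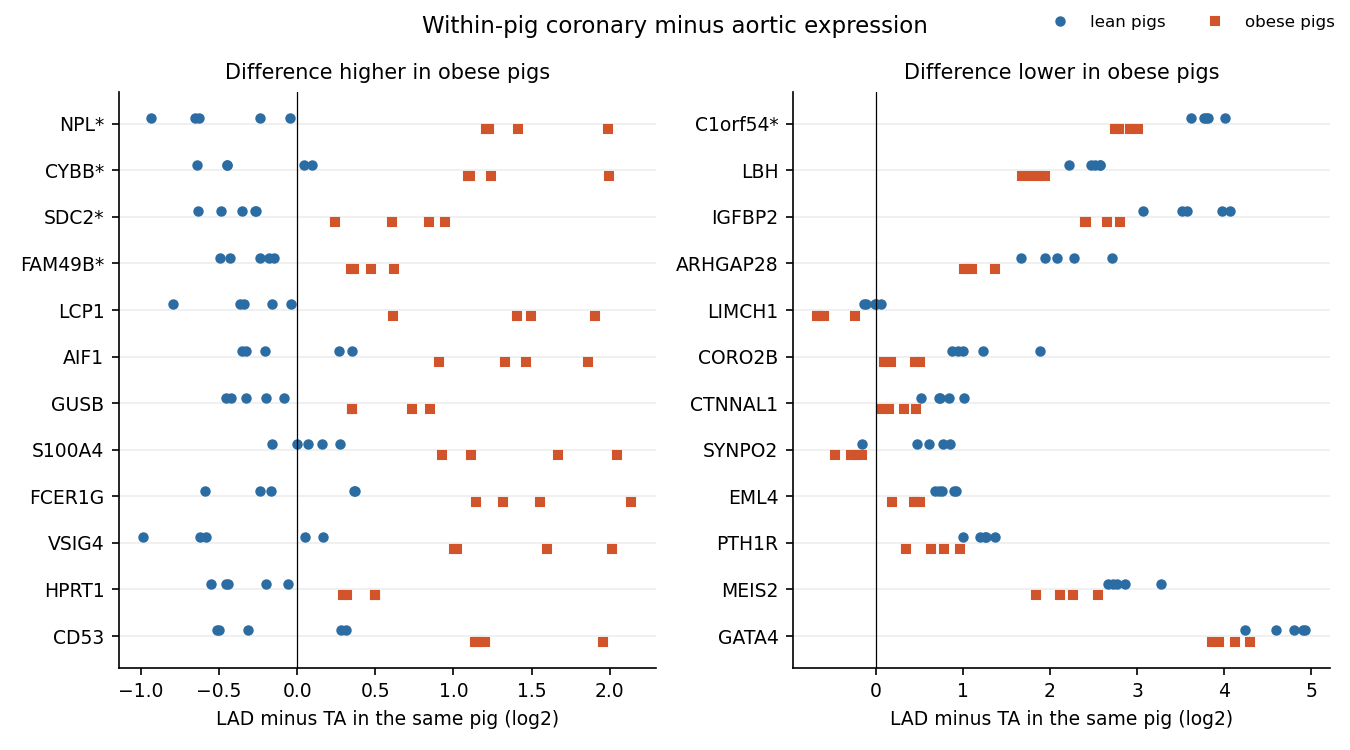
LAD minus TA log2 difference in each pig for the 12 named genes with the smallest p in each direction, lean pigs as blue circles and obese pigs as orange squares, with an asterisk on genes that passed. On the left the obese pigs lie to the right of all lean pigs for each gene, and most cross from below 0 to above it. On the right the obese pigs lie closer to 0 than the lean pigs for most genes.

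The genes next in order on the higher side did not pass, with adjusted p between 0.0503 and 0.0525. They were LCP1 (1.70, SE 0.24), the leukocyte actin-bundling protein L-plastin, VSIG4 (1.80, SE 0.28), a complement receptor of resident macrophages, and FCER1G (1.59, SE 0.25), the shared signalling chain of Fc receptors. CD53 (1.51, SE 0.24), a leukocyte tetraspanin, AIF1 (1.45, SE 0.21), the macrophage protein also called IBA1, and S100A4 (1.37, SE 0.21), a calcium-binding protein, followed. The last were GUSB (0.87, SE 0.13), the lysosomal beta-glucuronidase, and HPRT1 (0.74, SE 0.12), an enzyme of purine salvage. In 11 of the 12 higher genes, the 4 passing ones included, the lean mean lay below 0 and the obese mean above it, an exchange of rank between the arteries that 10.9% of all 6694 genes had. The order by p chose these 12 genes, so this count is not evidence of its own. GUSB and HPRT1 are widely used as reference genes for quantitative PCR. The LAD held less GUSB than the TA in all lean pigs and more in all obese pigs, and HPRT1 did the same.

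On the lower side, the genes next in order were LBH, a transcription cofactor of limb and heart (-0.65, SE 0.10, adjusted p = 0.0525), and IGFBP2, a secreted binding protein for insulin-like growth factors (-1.07, SE 0.20, adjusted p = 0.0675). IGFBP2 differences were 4.07, 3.58, 3.52, 3.07 and 3.98 in lean pigs and 2.65, 2.42, 2.80 and 2.40 in obese pigs, without overlap. As with C1orf54, the LAD level was close between groups (10.83 ± 0.24 in lean and 10.67 ± 0.21 in obese pigs), and the TA level differed by 0.91 (SE 0.15), which passed in the TA alone (adjusted p = 0.0397). ARHGAP28 (-1.0, SE 0.19), LIMCH1 (-0.50, SE 0.11), an activator of non-muscle myosin, CORO2B (-0.88, SE 0.20), a coronin, and SYNPO2 (-0.80, SE 0.19), an actin-bundling protein, did not pass. The other probe set of SYNPO2, with the higher signal, gave -0.24 (SE 0.17). Nor did CTNNAL1 (-0.52), EML4 (-0.40), PTH1R (-0.54), the parathyroid hormone receptor, MEIS2 (-0.67) and GATA4 (-0.64). By the probe set of smallest p, the obese minus lean difference was negative in LAD and positive in TA in all 12 lower genes (the other SYNPO2 probe set gave -0.47 and -0.22), and in 11 of them the LAD was above the TA in lean pigs, as it was in 55.0% of all genes. The obese pigs did not overlap the lean pigs in 10 of these 12 and in 12 of the 12 higher genes, beside 1.57% and 2.52% of all genes. The order by p chose these genes, so none of the counts over these 12 lower or 12 higher genes is evidence of its own.

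Macrophage genes as a group had a larger diet difference in the coronary artery than in the aorta. All 18 measured macrophage genes had a positive difference, with a median of 1.17, where 45.3% of the 6694 tested genes were positive and their median was -0.02. Of the 18, 1 passed (CYBB, beside 0.0448% of all genes), 15 had an unadjusted p under 0.05 (5.36% of all genes) and 15 did not overlap between groups (2.52%). Their median obese minus lean difference was 1.79 in LAD and 0.37 in TA. With 1 probe set per gene as the tested unit, 7 of the 18 passed, beside 33 of all 6694 genes with a higher difference. Other alternatives lowered the count, and no probe set passed with pig 57 added or without any one of pigs 48, 51, 55, 85 and 86. Because these are bulk samples, more macrophages and more of these transcripts per macrophage cannot be told apart.

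The mean of the macrophage genes, as LAD minus TA, was -0.33, -0.48, 0.34, 0.18 and -0.30 in the lean pigs and 0.77, 0.75, 0.99 and 1.45 in the obese pigs. Lean pigs scattered around equality and all obese pigs lay above them. It was 1.24, 1.10 and 1.15 higher in obese pigs within the 3 sacrifice dates. The mean level itself ran from 9.07 to 9.67 in lean and 10.21 to 11.62 in obese LAD, and from 9.33 to 9.57 in lean TA. In obese TA it was 10.85 and 10.77 in pigs 51 and 55, above all lean pigs, and 9.21 and 9.20 in pigs 81 and 85, below all of them. The within-pig difference was positive in each obese pig because its LAD exceeded its own TA, whether that TA was high or low. The median over the 18 genes was between 0.94 and 1.31 in all 26 alternatives, the lowest of them without pig 85.

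Functions within the group differed in size. The C1q chains C1QB (1.65, SE 0.32) and C1QA (1.56, SE 0.36) had values near that of CYBB, with obese minus lean differences of 1.71 and 1.67 in LAD but 0.06 and 0.11 in TA. CTSS, the lysosomal protease cathepsin S, differed by 1.13 (SE 0.23), with 1.94 in LAD and 0.82 in TA, and its other probe set by 1.74 (SE 0.38). CD74, the invariant chain of class II antigen presentation, differed by 0.02 (95% interval -0.27 to 0.30), with 0.52 in LAD and 0.50 in TA. SPP1, which encodes osteopontin, differed by 0.68 (interval -0.23 to 1.59), with 2.33 in LAD and 1.65 in TA. Lysozyme (LYZ) varied too much between pigs to place, at 1.22 with an interval from -1.43 to 3.87. None of the 20 listed T and NK cell genes was among the tested probe sets, and of the B cell list only BLNK, an adaptor of B cell receptor signalling, was, at 1.07 (SE 0.19). BLNK split the obese aortas as the macrophage genes did, at 8.94 and 8.71 in pigs 51 and 55 and 7.13 and 7.24 in pigs 81 and 85. Lean TA levels were 7.57 to 8.04. Which cells its signal came from was not tested.

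**Figure D3:**
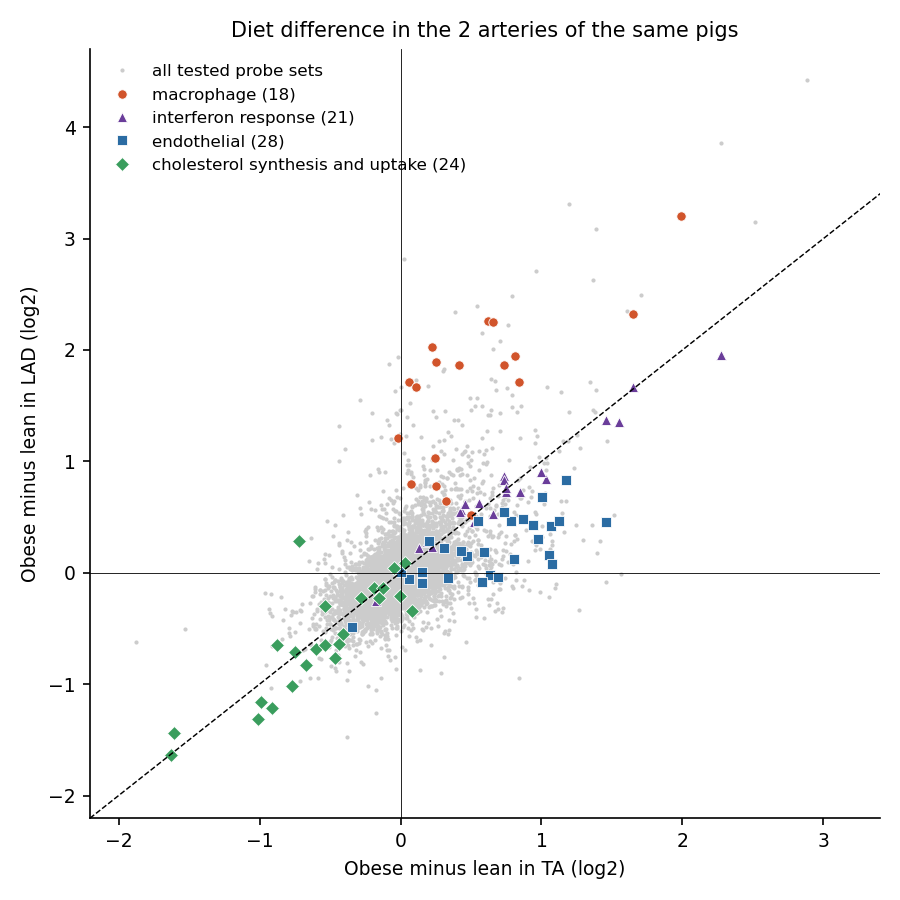
Obese minus lean log2 difference in the LAD (vertical) against that in the TA (horizontal) for all tested probe sets in grey and for the genes of 4 lists in colour. The dashed line marks equal differences in both arteries. Macrophage genes lie above the line, interferon response and most cholesterol genes along it, and endothelial genes mostly below it.

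Receptors and mediators of innate inflammation were mixed. Of 12 measured genes of the NF-kB inflammation list, 7 were positive and 5 negative with a median of 0.17, 6 had an unadjusted p under 0.05 and a positive difference (5.36% of all genes), and 0 passed. The pattern recognition receptors TLR4 (1.08, SE 0.19) and TLR2 (1.06, SE 0.19) were the largest, and TLR2 differed by 1.08 in LAD against 0.02 in TA. The monocyte chemoattractant CCL2 differed by 0.96 (SE 0.30). The chemokine CXCL14 differed by 0.79 (SE 0.31), and the adhesion molecule VCAM1 by -0.27 (interval -0.69 to 0.15), both with positive diet differences in each artery. Oxidative stress genes were positive in 20 of 24, with a median of 0.15. Beside CYBB, its partner subunit CYBA differed by 0.66 (SE 0.17) and mitochondrial superoxide dismutase SOD2 by 0.52 (SE 0.13). In the complement and coagulation list the median was -0.02, yet PLAU, the urokinase plasminogen activator, differed by 0.79 (SE 0.17), its receptor PLAUR by 0.51 (SE 0.16) and the complement inhibitor C4BPA by 1.84 (SE 0.45).

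The medians of the lipid gene lists differed, and no list was tested. Of 13 LXR target and efflux genes, 9 were positive with a median of 0.25. Of these, 4 had an unadjusted p under 0.05 (5.36% of all genes) and 0 passed. APOE, the lipoprotein that accepts effluxed cholesterol, had the largest difference of all 6694 genes. Its level in the LAD was 9.20, 8.49, 9.92, 10.30 and 9.01 in lean pigs and 13.49, 13.32, 10.98 and 11.03 in obese pigs. In the TA it was 11.92, 12.79, 11.86, 12.23 and 12.71 in lean pigs and 12.46, 12.39, 12.95 and 11.51 in obese pigs. All obese coronary arteries were above all lean ones, whereas the aortas of both groups lay together at a high level. The response differed by 2.79 (SE 0.69, interval 1.25 to 4.33, adjusted p = 0.177), with 2.82 (SE 0.61) in LAD and 0.03 (SE 0.29) in TA, and the within-pig values of the groups overlapped through pig 81. It was 5.22, 3.75 and 1.30 within the sacrifice dates.

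Other sterol-responsive genes differed less. NPC2, the lysosomal cholesterol carrier, differed by 0.52 (SE 0.11) and the HDL receptor SCARB1 by 0.35 (SE 0.14). The sterol exporter ABCA1 differed by 0.25 (interval -0.33 to 0.83), with diet differences of 1.44 in LAD and 1.19 in TA. SMPDL3A, an LXR-induced phosphodiesterase, differed by 1.54 (interval -0.06 to 3.14), with 4.42 in LAD and 2.88 in TA. SCD, the stearoyl-CoA desaturase, differed by 0.91 (SE 0.36), with 0.97 in LAD and 0.06 in TA.

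Cholesterol synthesis and uptake genes had no common direction. Of 24 measured genes 9 were positive and 15 negative, with a median of -0.08, while the median diet difference was -0.64 in LAD and -0.54 in TA. The list mean, as LAD minus TA, differed by -0.57, -0.81 and 0.54 between obese and lean pigs of the same date, so the median near 0 joins opposite values. It was -0.74 and -0.12 in obese pigs 51 and 55, 0.58 and 0.20 in obese pigs 81 and 85, and -0.28 to 0.45 in lean pigs. PMVK, the phosphomevalonate kinase, differed by -0.09 (interval -0.43 to 0.26). The precision was limited, since the interval stayed within 1 log2 unit of 0 in 15 of the 24 genes, beside 93.9% of all genes. INSIG1, which retains the sterol sensor complex in the endoplasmic reticulum, was the exception. Its differences were 0.23, 0.44, 0.03, -0.29 and -0.40 in lean pigs and 0.66, 1.15, 1.49 and 0.75 in obese pigs. The groups did not overlap, and the response differed by 1.01 (SE 0.21, adjusted p = 0.114), with 0.29 in LAD and -0.72 in TA.

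No difference of the interferon response between the arteries was detectable in these 9 pigs. Of 21 measured genes 11 were positive and 10 negative, the median was 0.01, and 0 had an unadjusted p under 0.05 (0 passed by limma). Of all genes, 5.36% had such a p with a positive difference and 4.21% with a negative one. The median diet difference was 0.73 in LAD and 0.74 in TA, with 20 of 21 genes positive in each. The interval of the difference stayed within 1 log2 unit of 0 in 20 of the 21 (95.2%), near the 93.9% of all genes. RSAD2, the antiviral protein viperin, differed by 1.95 (SE 0.47) in LAD and 2.27 (SE 0.27) in TA, and the response differed by -0.32 (interval -1.01 to 0.37). OAS1, an RNA sensor, differed by 1.66 in LAD and 1.65 in TA, a difference of 0.01 (interval -0.39 to 0.42), and ISG15 by 1.35 and 1.55, a difference of -0.19 (interval -0.64 to 0.26). Among the genes examined by name, SRGN, a proteoglycan of secretory granules, and CPT1A, which admits fatty acids to mitochondria, were as close. They differed by -0.02 (interval -0.58 to 0.55) and 0.08 (interval -0.25 to 0.41).

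**Figure D4:**
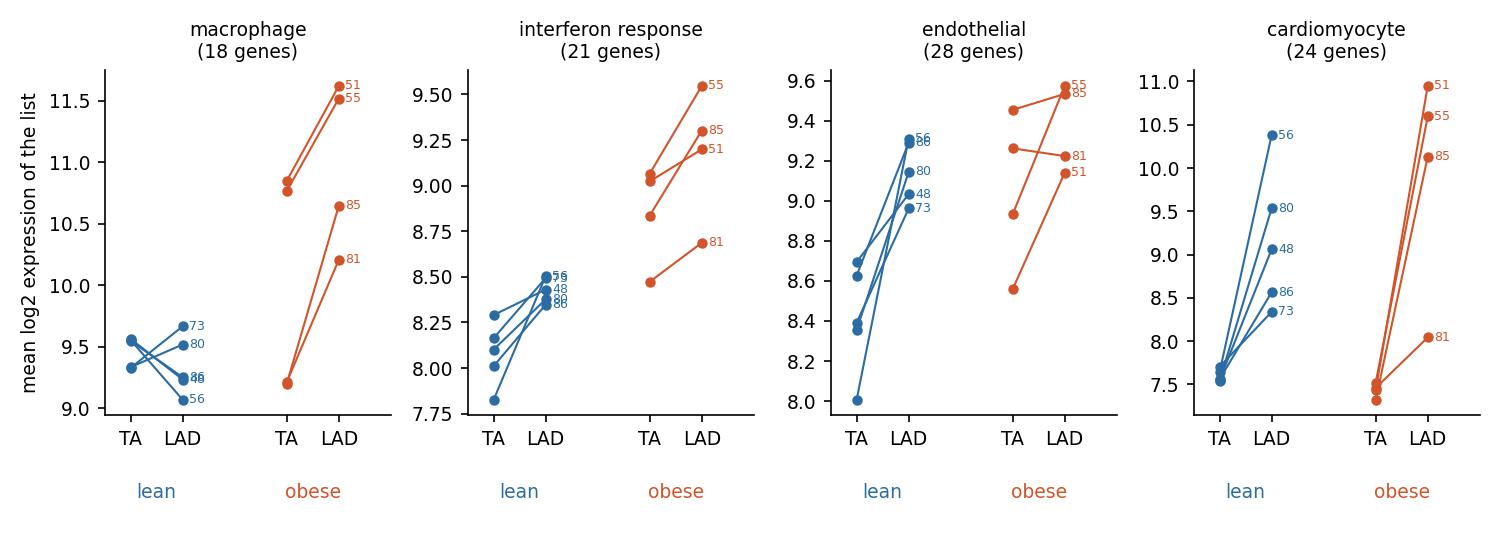
Mean log2 level of 4 gene lists in the TA and LAD of each pig, with the pig number beside each LAD point, lean pigs in blue and obese pigs in orange. For macrophage genes the obese aortas split into pigs 51 and 55 above and pigs 81 and 85 below the lean pigs. For endothelial genes the aortas of pigs 81 and 85 are the highest, and cardiomyocyte genes vary widely in LAD in both groups.

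Endothelial genes ran the other way. Of 28 measured genes 27 had a negative difference, with a median of -0.36. Of these, 9 had an unadjusted p under 0.05 (4.21% of all genes), 1 did not overlap between groups (1.57%) and 0 passed (0.0149%). With 1 probe set per gene as the tested unit 0 passed too, beside 3 of all genes with a lower difference. The median diet difference was 0.19 in LAD and 0.66 in TA. PECAM1, the junction protein CD31, had LAD minus TA differences of 1.05, 2.18, 1.19, 1.61 and 1.47 in lean pigs and 0.91, 0.93, 0.48 and 0.13 in obese pigs. Obese pigs were all below lean pigs, with pigs 81 and 85 the lowest. The response differed by -0.89 (SE 0.24), with 0.16 in LAD and 1.05 in TA. The angiopoietin receptor TEK differed by -1.0 (SE 0.29), the junction proteins ESAM by -0.66 (SE 0.18) and CLDN5 by -0.68 (SE 0.25), and endothelial nitric oxide synthase NOS3 by -0.99 (interval -2.0 to 0.01). A second NOS3 probe set gave 0.05 (SE 0.10). Endothelin EDN1 (-0.38, SE 0.43), VWF (-0.66, SE 0.53) and PLVAP (-0.33, SE 0.33) had wide errors.

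The endothelial result rests on few pigs. The list mean, as LAD minus TA, was 0.34, 1.30, 0.57, 0.79 and 0.66 in lean pigs, 0.58 and 0.64 in obese pigs 51 and 55, and -0.04 and 0.08 in obese pigs 81 and 85, whose TA 28S/18S ratios were the lowest. Without pigs 81 and 85 the median was -0.03 with 14 genes on each side. Taken date by date, the mean of the list gave -0.66, 0.24 and -0.65.

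The positional transcription factors, to which GATA4 belongs, were negative in 16 of 18 with a median of -0.36. Of these, 6 had an unadjusted p under 0.05 (4.21% of all genes) and 0 passed. GATA4 had LAD minus TA differences of 4.90, 4.24, 4.80, 4.59 and 4.93 in lean pigs and 3.94, 4.12, 4.29 and 3.86 in obese pigs. The coronary excess of GATA4 was smaller in the obese pigs apart from an overlap of lean pig 56 with obese pig 81. MEIS2, a homeobox cofactor, differed by -0.67 without overlap, TBX3, a T-box repressor, by -0.79 (SE 0.24) and MEIS1 by -0.45 (SE 0.16). Taken date by date, the mean of the list gave -0.72, -0.01 and -0.35. ALDH1A2, which makes retinoic acid, differed by -0.93 (SE 0.31), with 0.43 in LAD and 1.36 in TA.

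Genes of insulin and glucose handling were negative in 20 of 24, with a median of -0.12. Of these, 4 had an unadjusted p under 0.05 (4.21% of all genes). Beside IGFBP2, the insulin receptor INSR differed by -0.34 (SE 0.10), FOXO1, a transcription factor restrained by insulin, by -0.32 (SE 0.11) and the glucose transporter SLC2A1 by -0.43 (SE 0.17). The list mean was 0.18, 0.35, 0.12, 0.24 and 0.31 in lean pigs and 0.07, 0.10, 0.10 and 0.08 in obese pigs, which did not overlap but lay close together. Contractile smooth muscle genes were negative in 32 of 37 with a median of -0.14. Their list mean differed by -0.29, -0.24 and -0.0025 from date to date, and obese pig 81 (0.36) lay above every lean pig (0.24 to 0.30). Filamin FLNA differed by -0.35 (SE 0.11) and calponin CNN1 by -0.25 (SE 0.09), each with most of its diet difference in LAD. The angiotensin receptor AGTR1 differed by -0.66 (interval -1.36 to 0.04), with -0.75 in LAD and -0.09 in TA.

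Matrix genes had no common direction, with 26 of 56 positive and a median of -0.04. Tenascin TNC differed by -1.16 (SE 0.36), with -0.17 in LAD and 0.99 in TA, and the crosslinking enzyme LOXL2 by 0.83 (SE 0.25). Versican VCAN differed by 0.58 (SE 0.22), with 0.57 and 0.21 on its other probe sets, and periostin POSTN by 1.06 with an interval of -0.13 to 2.24.

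Energy and growth genes were positive in most members. Of 53 oxidative phosphorylation (OXPHOS) genes 46 were positive, 14 of them with an unadjusted p under 0.05 (5.36% of all genes). The OXPHOS median was 0.14, with 0.06 in LAD and -0.10 in TA. The cytochrome bc1 subunits UQCRQ (0.43, SE 0.10) and UQCRFS1 (0.36, SE 0.09) and the cytochrome oxidase subunit COX5A (0.36, SE 0.10) had the smallest p. Of 23 fatty acid oxidation genes 18 were positive with a median of 0.12, and the dehydrogenase ACADM (0.44, SE 0.08) had the smallest p. Immediate early genes were positive in 18 of 22 with a median of 0.45. FOS differed by 1.51 (SE 0.40) and MYC by 0.73 (SE 0.20), each with a positive value in LAD and a negative value in TA. Of 15 cell cycle genes 12 were positive with a median of 0.25, among them the replication helicase subunits MCM6 (0.36, SE 0.11) and MCM4 (0.51, SE 0.17). An unadjusted p under 0.05 was found for 5 positive members (5.36% of all genes) and for 2 negative ones (4.21%). The lowest member was at -0.54.

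Heart muscle RNA varied widely between pigs. Cardiomyocyte genes were positive in 20 of 24 with a median of 1.11, but 2 had an unadjusted p under 0.05 and 0 were without overlap, beside 5.36% and 2.52% of all genes. Their mean, as LAD minus TA, was 1.51, 2.74, 0.63, 2.00 and 1.00 in lean pigs and 3.51, 3.08, 0.58 and 2.81 in obese pigs. Obese pig 81 was the lowest of all 9, and the other obese pigs were the highest. The fatty acid binding protein FABP3 (0.86, SE 0.25) and phospholamban PLN (0.72, SE 0.30), both made by heart muscle, had the smallest p. PLN is also a member of the contractile smooth muscle list. Larger values with larger errors were those of MYOM2 (1.61, SE 0.83) and MYBPC3 (1.35, SE 0.73), proteins of the sarcomere. PLN reached its value through -0.19 in LAD and -0.92 in TA. With this mean as a covariate the median was 0.14 for OXPHOS genes, 1.29 for macrophage genes and -0.60 for endothelial genes. In the fit of all 6 groups of the series the OXPHOS median was -0.05, and the mean of the OXPHOS list differed by 0.0056, 0.19 and 0.20 from date to date.

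Nerve genes were negative in 11 of 14, with a median of -0.22. Their list mean differed by -1.32, -0.06 and -0.28 from date to date. The 2 probe sets of MBP, myelin basic protein, gave -1.21 and 0.77. The medians of the other lists with at least 5 measured genes lay between -0.20 and 0.09, for cytosolic ribosomal protein genes (-0.03), heat shock (-0.0012), endoplasmic reticulum stress (0.09), hypoxia and glycolysis (-0.05), glucocorticoid response (0.06), circadian (-0.15), fibroblast (-0.06, but -1.01, 0.08 and 0.16 for the list mean from date to date), vasoactive (-0.14), adipocyte (-0.14), epithelial (-0.20) and fatty acid and triglyceride synthesis genes (0.08). In these lists 0 genes passed by limma, and 0 to 4 per list had an unadjusted p under 0.05. Of all genes, 5.36% had such a p with a positive difference and 4.21% with a negative one. The stress-induced DDIT4, an inhibitor of growth signalling, differed by -0.91 (SE 0.24), with -0.29 in LAD and 0.63 in TA.

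**Figure D5:**
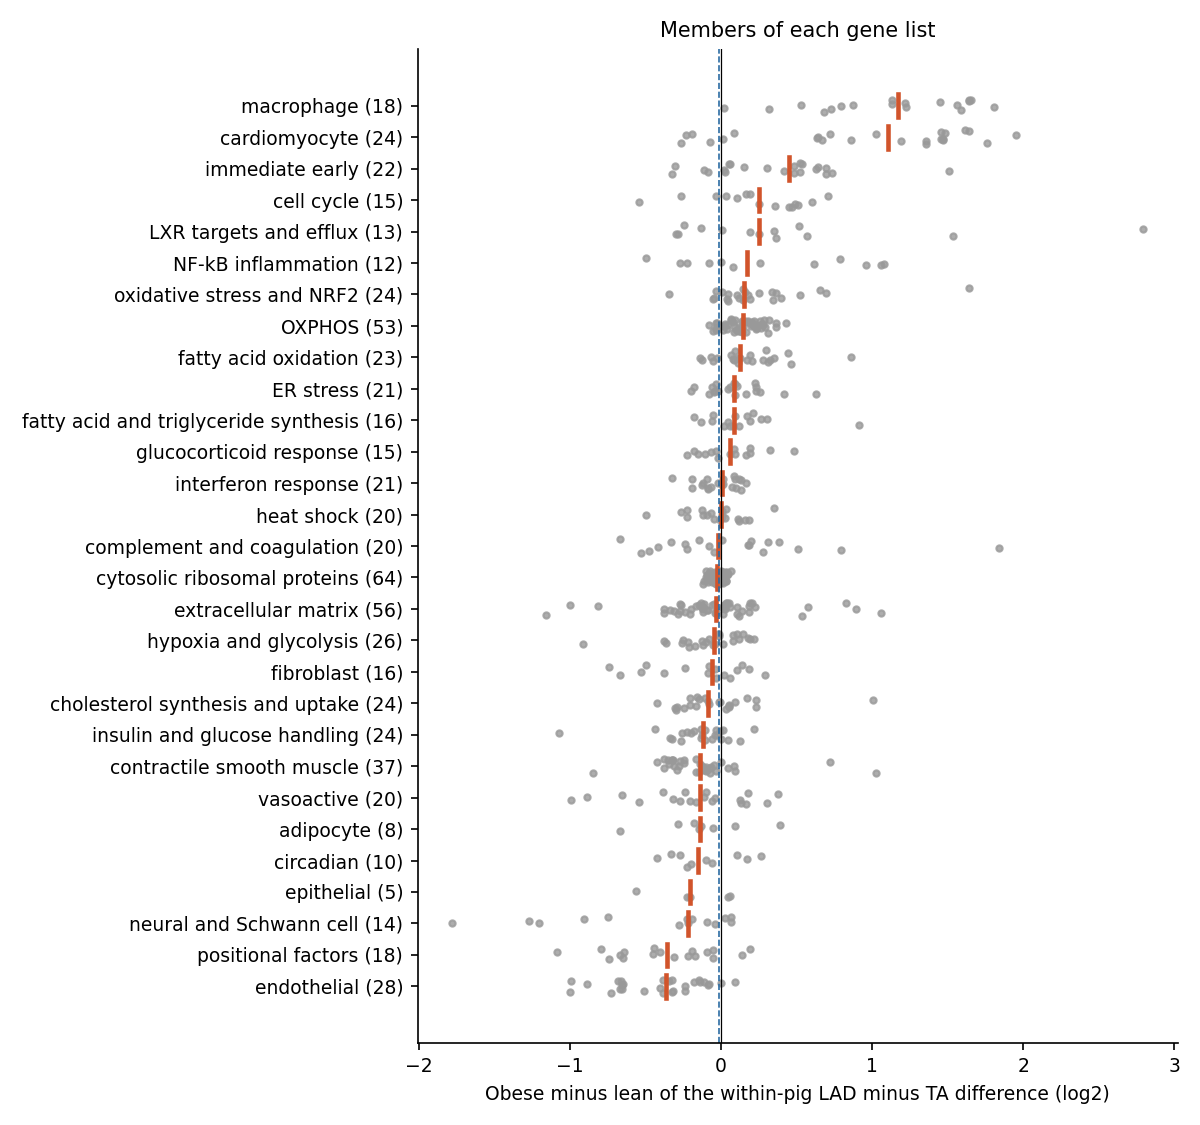
Obese minus lean value of the within-pig LAD minus TA log2 difference for each member (grey) of every list with at least 5 measured genes, with the list's median in orange and the number of members in brackets. The dashed line is the median of all tested genes, -0.02. Macrophage and cardiomyocyte lists stand farthest above it, and endothelial and positional lists farthest below it.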

How the data were processed

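The deposited values are log2 expression per probe set from Affymetrix porcine arrays, computed by the authors with affy, an R package, per the submitters' processing notes. The affy version and the treatment of background and scale are not given in the sources used here. This table holds 14327 probe sets, of which 11602 carry a human symbol. No genome build comes with it, so no positions are printed. All 32 arrays were run on 1 date, array medians of the 18 arrays used lay between 8.37 and 8.55, and no pair of arrays correlated above 0.988. The number of arrays limits the precision.

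Probe sets were ranked by their mean over 32 arrays and the lowest 30% were dropped, leaving 10029. LAD minus TA was computed per pig, and obese and lean pigs were compared with limma 3.58.1 under R 4.3.3 (functions lmFit and eBayes, two-sided, Benjamini-Hochberg over all tested probe sets, threshold 0.05). LAD and TA were also compared alone in the same 9 pigs. Arrays with the same number come from the same animal, so the number pairs them (consensus correlation within pig 0.309). Lists were counted over 6694 genes, each by the probe set with the highest mean, with no test of a list. Values are log2 differences with standard errors (SE). Detection calls were not used, and weak signals compress differences. The method was checked on simulated data.

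Named genes are the passing genes and those next in order of p, up to 12 per direction, up to 4 of smallest p per list, and a fixed set of 30. BLNK, CD74 and LYZ were added after their values were seen. The members and lists were chosen with earlier results of these data known. Alternatives were other filters, scalings, moderation and units, date and replicate blocks, all 6 groups, covariates for RNA quality and heart muscle, pig 57 added, and each pig left out. Leaving out pigs 81 and 85 together was chosen after seeing the data. Results for some genes are not reported here.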

Additional observations from a re-analysis of the deposited data

Results flagged for a closer look

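Among 106 groups of pigs examined (each named gene of the first and last part of the naming rule, lean and obese separately), 5 had 1 pig far from the others, and chance alone gives about 1 in 20. Obese pig 85 stood above the other obese pigs for the LAD minus TA difference of CYBB (2.00, next 1.24) and of CD53 (1.96, next 1.20). Obese pig 81 stood above the others for LIMCH1 (-0.24, next -0.60). Lean pig 48 stood below the other lean pigs for SPP1 (-0.51, next 0.77) and CXCL14 (0.14, next 1.15).

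For 7 probe sets the diet difference in LAD differed from that in TA by the test of the difference itself. These were NPL (1.96), CYBB (1.64), SDC2 (1.06), FAM49B (0.75), C1orf54 (-0.94) and 2 probe sets without a gene symbol (1.13 and 1.35).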

How the results depend on the processing

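The count of 7 passing probe sets became 19 with no filter, 13 with the 50% lowest left out, 0 with pig 57 added, and 17 each with sacrifice date as a block, with array medians set equal and with quantile normalization. It was 0 with no replicate block, 1 with a random replicate block, 0 with all 6 groups in 1 fit, 207 with the 28S/18S difference as a covariate, 0 with the cardiomyocyte mean as a covariate, 37 with trend and robust moderation and 36 with 1 probe set per gene. Leaving out each pig in turn gave 0 to 61, and leaving out pigs 81 and 85 together gave 692 (223 higher, 469 lower). The cause of these changes was not tested. For the LAD alone, 0 became 7 with sacrifice date as a block and 0 to 539 without each pig. For the TA alone, 29 became 21 with no filter, 23 with the 50% lowest left out or with date as a block, 0 with pig 57, 44 with equal medians, 52 with quantile normalization and 1 to 31 without each pig.

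The call was kept by NPL in 12 of 22 alternatives, by CYBB in 11 of 23, by SDC2 in 7 of 22, by FAM49B in 8 of 23 and by C1orf54 in 13 of 23, and the direction in all of these. Of 4593 gene and list values under alternatives, 4054 kept their size and side of the threshold, 355 moved, 62 lost and 122 gained a call, and no called value changed sign. The 9 pigs limit what can be seen: the median half-width of the 95% interval was 0.28 over all genes, 0.36 for interferon and 0.63 for endothelial genes.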
